A study of Mus musculus with 6 samples.

Results

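The TNF superfamily consists of cell surface or secreted ligands, named Tnfsf, and their receptors, named Tnfrsf. In the series matrix, 29 of 22206 probe sets had a platform symbol that starts with Tnfsf or Tnfrsf, 9 for ligands and 20 for receptors, each gene with 1 probe set. They were chosen by symbol alone. The values are log2 expression values from 6 Affymetrix Mouse Clariom S arrays of total RNA from mouse HoxB8 neutrophil progenitors, which are cells held immature by the transcription factor Hoxb8. All cells had spent 1 day in differentiation medium that contained supernatant with stem cell factor (SCF). One group expressed WT-C/EBPα (WT, 3 arrays) and the other K313-C/EBPα (K313, 3 arrays), the latter a form associated with acute myeloid leukaemia (AML) according to the series title. The comparison asks how gene expression differs with the K313 form of C/EBPα, the transcription factor that drives granulocyte formation. The labels do not say how the forms were introduced, whether each group is 1 clone, or whether the replicates were grown as separate cultures. The p-values therefore cover only the scatter of these 6 samples, which could be technical.

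Ligands of this superfamily form trimers that gather receptors on the target cell. Receptors with a death domain can recruit caspases or, through the adaptor TRADD, the NF-kB pathway, whereas others bind TRAF adaptors directly and promote survival, activation or differentiation, and decoy receptors bind ligand without passing on a death signal. Neutrophils are a known source of the B cell survival factor BAFF (Tnfsf13b) and of the death ligand TRAIL (Tnfsf10), and respond to TNF through both of its receptors.

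The ligands BAFF and TRAIL were higher in K313. BAFF had a mean log2 level of 7.70 in K313 and of 4.32 in WT, and no fold is given for it, because its WT mean lay at the low end of the array, under a low-end mark of 4.70 that 95% of olfactory and vomeronasal receptor probe sets did not exceed. TRAIL was 3.24-fold higher. The receptors Tnfrsf21 and Tnfrsf1b were 2.71- and 2.63-fold higher. The receptors Tnfrsf18 and Tnfrsf26 were 2.09- and 2.04-fold lower, and Tnfrsf13b, a receptor of BAFF, was 1.61-fold lower. In all, 4 of the 29 members rose, 3 fell and 22 did not pass the threshold (limma, adjusted p under 0.05 over all probe sets). Over the whole array 7.75% of probe sets were called, 3.77% higher and 3.97% lower in K313, against 13.8% higher and 10.3% lower among the members. The median change of the members was 0.03 on the log2 scale (K313 minus WT), beside 0.02 for all probe sets. Without WT replicate 3, 4 members rose and 2 fell. With a variance estimated for each probe set alone, without limma's moderation, 0 of the 7 calls remained (adjusted p between 0.0563 and 0.0939; all 7 had an unadjusted p under 0.05 in that fit), and 496 probe sets were called on the array in place of 1720.

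**Figure D1:**
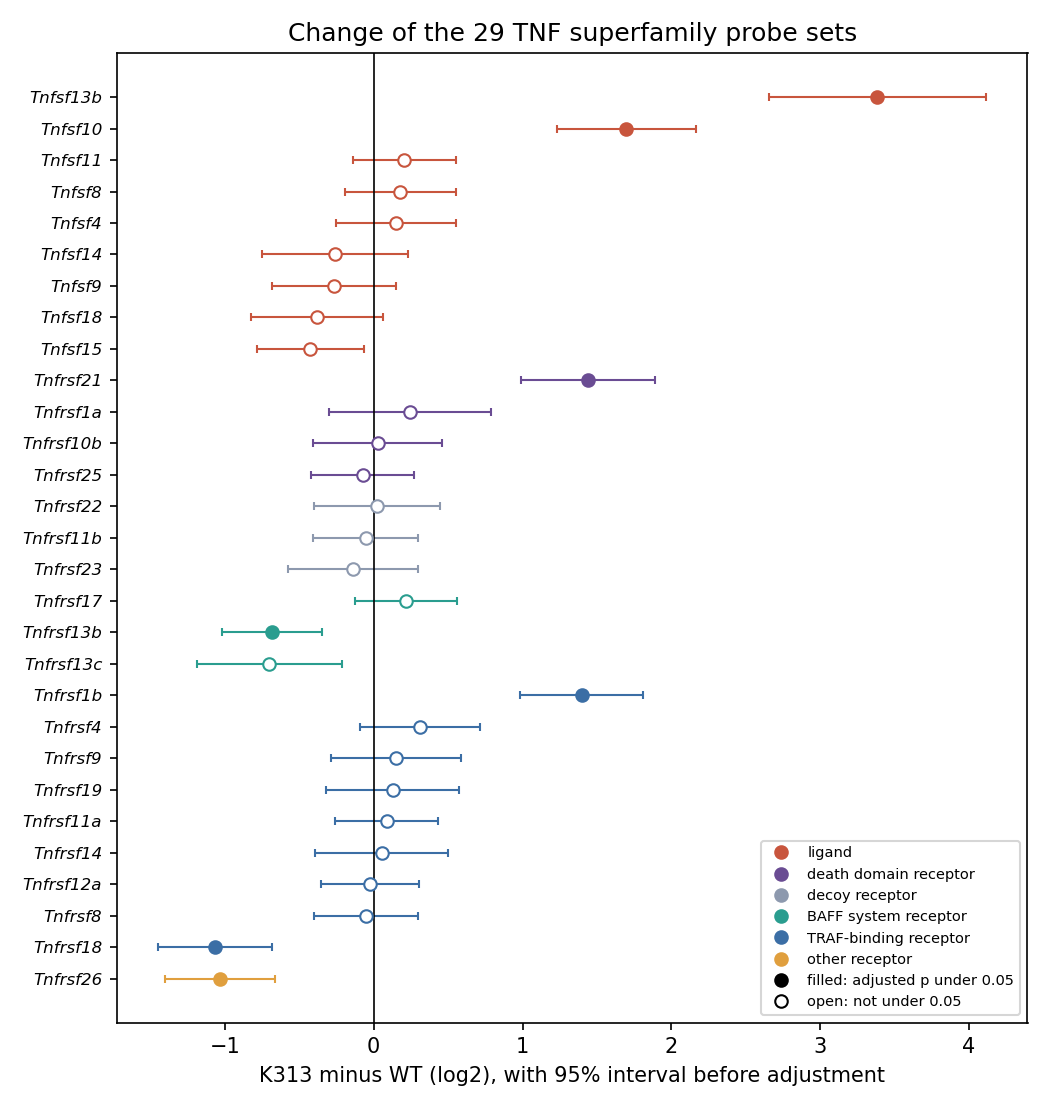
Difference between the groups for each of the 29 probe sets (K313 minus WT, log2, horizontal axis), grouped by the role of the gene; points are estimates from 3 arrays per group and bars their 95% intervals before adjustment. The 7 filled points passed the threshold, from 3.38 for Tnfsf13b to -1.07 for Tnfrsf18, and the open points lie between -0.70 and 0.31.

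Some properties of the arrays bear on these values. The groups also differed in Hoxb8, from 12.98 ± 0.52 in WT to 8.34 ± 0.25 in K313 (log2 level, SD, n = 3), and in the Y-linked gene Eif2s3y, which read 3.11, 2.93 and 7.03 in WT and 12.09 to 12.37 in K313. Both genes separate the same groups as the C/EBPα form does, so these arrays cannot tell such differences apart from the K313 form. Their part in the results below was not tested. WT replicate 3 stood apart from the other WT arrays: its correlation with K313 arrays was 0.987 to 0.989 (Pearson's r across probe sets, which share the array), against 0.983 to 0.986 for the other WT arrays. Some results, among them those of the 7 called members and of Tnf, are therefore also given without it. All 10 markers of granulocyte progenitors were above the low-end mark in both groups, but their levels differed in both directions. The granule protein genes Elane (3.29), Ctsg (1.75) and Prtn3 (0.94) and the myeloid gene Ms4a3 (0.81) rose in K313 (log2 change), whereas Csf3r, the G-CSF receptor, fell by 1.03 and the progenitor surface gene Cd34 fell by 0.93. Those that did not pass the threshold were Kit (-0.62), Cebpa (-0.51), Gfi1 (0.36) and Mpo, which read 18.41 in WT and 18.42 in K313. RNA of a bulk sample cannot separate fewer cells of a type from less RNA per cell.

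Detection calls were not used here, so olfactory and vomeronasal receptor genes, which are not known for a role in blood cells, served as a guide to the low end. Of their 1412 probe sets, 95% had a mean log2 level of at most 4.70, the low-end mark. By that mark, 11 of the 29 members lay at or below it in both groups, and 18 lay above it in at least 1 group. The 11 were the ligands Tnfsf4, Tnfsf8, Tnfsf9, Tnfsf11 and Tnfsf18 and the receptors Tnfrsf8, Tnfrsf9, Tnfrsf10b, Tnfrsf11b, Tnfrsf17 and Tnfrsf19. Among those 11, 0 passed limma's threshold, and 0 had an unadjusted p under 0.05. A difference in a gene at that level would be compressed by background, so these values do not show that such genes were equal in the groups.

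**Figure D2:**
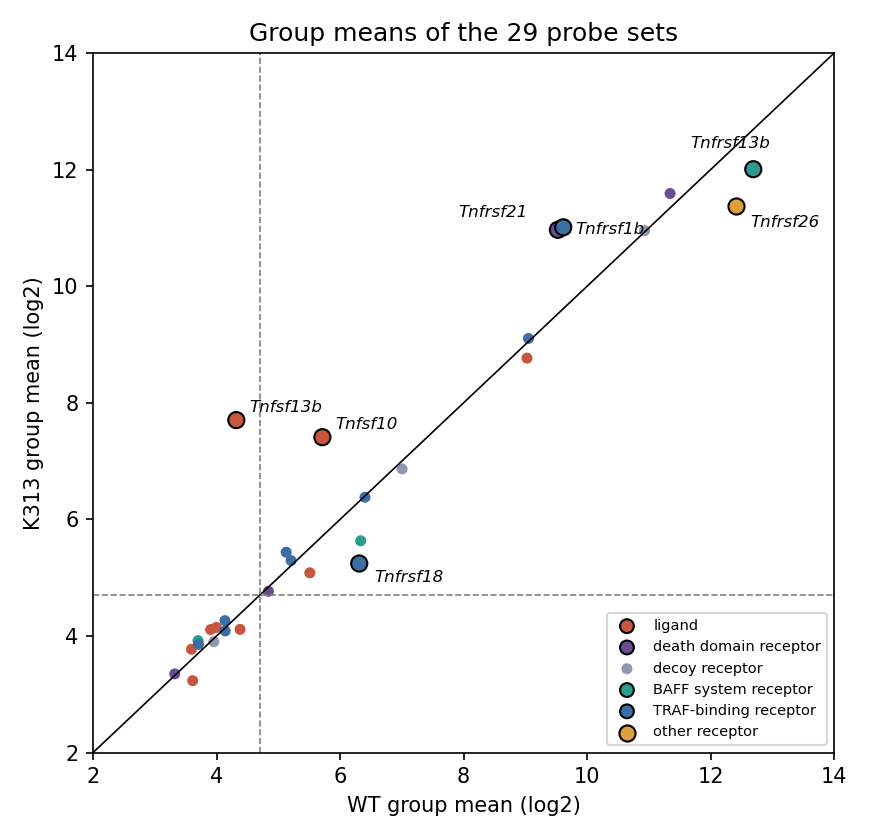
Mean log2 level of each of the 29 probe sets in WT (horizontal axis) and K313 (vertical axis), n = 3 arrays each, coloured by role; the solid line marks equal means, the dashed lines the low-end mark of 4.70, and larger outlined points passed the threshold. Tnfsf13b is the called member whose WT mean, 4.32, lies under the mark while its K313 mean, 7.70, lies above it.

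The sequences just upstream of the 4 members that rose together are given here so that their start regions can be compared. They are the 250 bases before an annotated transcription start (for Tnfsf13b, the more upstream of its 2 windows), from RefSeq on GRCm38.p6, written 5′ to 3′ along the gene's strand, with matches to the searched motifs in capitals. The Tnfsf10 window is chr3:27316827-27317076, plus strand, that of Tnfsf13b is chr8:10006217-10006466, plus strand, that of Tnfrsf1b is chr4:145246871-145247120, minus strand, and that of Tnfrsf21 is chr17:43016305-43016554, plus strand.
Tnfsf10: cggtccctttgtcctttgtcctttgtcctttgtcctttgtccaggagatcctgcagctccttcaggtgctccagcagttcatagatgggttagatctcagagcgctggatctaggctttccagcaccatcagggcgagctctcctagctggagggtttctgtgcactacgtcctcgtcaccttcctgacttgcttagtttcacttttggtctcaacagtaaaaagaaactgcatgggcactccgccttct
Tnfsf13b: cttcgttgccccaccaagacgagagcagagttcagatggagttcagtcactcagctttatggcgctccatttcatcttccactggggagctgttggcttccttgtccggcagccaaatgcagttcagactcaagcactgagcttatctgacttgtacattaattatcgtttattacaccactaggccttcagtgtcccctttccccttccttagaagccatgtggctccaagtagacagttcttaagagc
Tnfrsf1b: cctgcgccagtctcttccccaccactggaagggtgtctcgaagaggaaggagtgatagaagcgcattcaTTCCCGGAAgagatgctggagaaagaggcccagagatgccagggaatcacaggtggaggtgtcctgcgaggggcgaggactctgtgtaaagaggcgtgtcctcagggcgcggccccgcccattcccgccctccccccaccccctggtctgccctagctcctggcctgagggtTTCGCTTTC
Tnfrsf21: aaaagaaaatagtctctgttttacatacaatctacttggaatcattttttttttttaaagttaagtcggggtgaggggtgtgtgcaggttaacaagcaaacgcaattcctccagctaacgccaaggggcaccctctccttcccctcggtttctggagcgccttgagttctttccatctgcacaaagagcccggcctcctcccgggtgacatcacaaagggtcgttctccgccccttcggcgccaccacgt

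Each window was searched on both strands for 4 patterns: TTGCNNAA for C/EBP factors, GAAANNGAA for the interferon-stimulated response element (ISRE), GGGANNTTC for NF-kB, and TTCNNNGAA for the interferon-gamma activated site (GAS), which STAT factors bind. No matches overlapped. The table held 27 such windows for 23 of the 29 members. The C/EBP pattern was in 1 of these 27 windows, that of Tnfrsf23, and in 9.56% of all 32851 windows of the same length. The ISRE pattern was in 6 of the 27 (Tnfrsf14, Tnfrsf17, Tnfrsf1b, Tnfrsf4, Tnfsf13b and Tnfsf8) and in 7.13% of all windows. Of these genes, Tnfrsf1b and Tnfsf13b were called, whereas Tnfrsf14, Tnfrsf17, Tnfrsf4 and Tnfsf8 were not. The pattern had been shortened after a first search was seen, so these shares are no test of enrichment. In Tnfrsf1b it begins 9 bases before the start. In Tnfsf13b it begins 16 bases before the second, more downstream start, shown here in a 30-base stretch at chr8:10006603-10006632, plus strand.
Tnfsf13b, second start: atcttacaaaaactGAAAGTGAAatgcgga
The GAS pattern was in 5 of the 27 windows and in 7.02% of all, with Tnfrsf1b and Tnfrsf18 among the called members that held it. The NF-kB pattern was in 1 of the 27, that of Tnfsf18, and in 3.23% of all. A match only describes the letters of the window.

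Among the 9 ligands, 2 rose (22.2%, beside 3.77% of all probe sets), 0 fell and 7 did not pass the threshold. At or below the low-end mark in both groups were 5 of the 9. BAFF (Tnfsf13b, probe set TC0800000074.mm.2), the survival factor of peripheral B cells, read 3.49, 4.40 and 5.07 in WT and 7.73, 8.0 and 7.38 in K313. The lowest K313 array lay 2.31 log2 units above the highest WT array, and WT replicate 3 was the highest of its group. The mean was 4.32 ± 0.79 in WT and 7.70 ± 0.31 in K313 (SD, n = 3), a change of 3.38 ± 0.33 (SE; limma adjusted p = 5.32e-05; 95% interval 2.65 to 4.11 before adjustment). Without WT replicate 3 the change was 3.76 ± 0.28. The WT mean and 2 of the 3 WT arrays lay under the low-end mark, so the size of the change rests on a WT level that was not clear of background.

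TRAIL (Tnfsf10, probe set TC0300000161.mm.2), which triggers apoptosis through death receptors, read 5.57, 5.42 and 6.15 in WT and 7.19, 7.41 and 7.63 in K313. The groups did not overlap, and replicate 3 was the highest WT array, as for BAFF. Over the 7 called members, the WT array nearest the K313 mean was replicate 1 in 3, replicate 2 in 2 and replicate 3 in 2. Over all 1720 called probe sets it was replicate 3 in 43.4%, and replicates 1 and 2 in 28.3% each. The mean was 5.71 ± 0.39 in WT and 7.41 ± 0.22 in K313 (SD, n = 3), a change of 1.70 ± 0.21 (SE; limma adjusted p = 0.000342). Without WT replicate 3 the change was 1.92 ± 0.19 (adjusted p = 0.000182).

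The other ligands gave smaller differences. LIGHT (Tnfsf14), a ligand of the receptor HVEM, was well above the low-end mark and read 9.29, 8.50 and 9.29 in WT and 8.65, 8.68 and 8.97 in K313, so the groups overlapped. Its difference was -0.26 ± 0.22 (SE; limma adjusted p = 0.641; 95% interval -0.75 to 0.23). TL1A (Tnfsf15), the ligand of the death domain receptor DR3, read 5.49 to 5.53 in WT and 4.83 to 5.24 in K313. All its K313 values were lower, yet the difference of -0.43 ± 0.16 did not pass the threshold (limma adjusted p = 0.182). The 5 ligands at or below the mark, which act mainly on T cells, B cells and osteoclast precursors, had differences between -0.38 (Tnfsf18) and 0.21 (Tnfsf11).

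**Figure D3:**
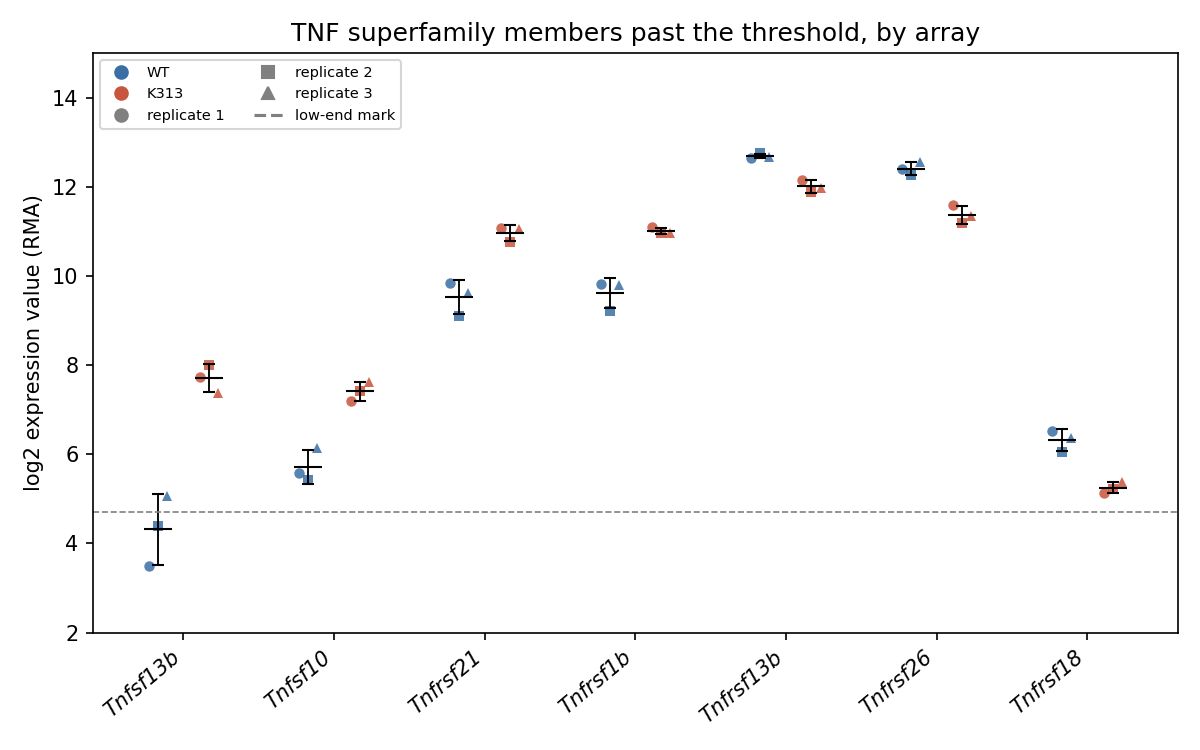
Log2 level on each array of the 7 members past the threshold; symbols mark the replicate, the horizontal bar the group mean and the error bar the SD (n = 3), and the dashed line is the low-end mark of 4.70. In each of the 7 the WT and K313 arrays do not overlap.

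The receptors of these ligands were then read side by side with them. TACI (Tnfrsf13b, probe set TC1100000774.mm.2), a receptor of BAFF on B cells, had the brightest probe set of the members, which does not rank the transcripts, because probe sets differ in response. It read 12.65, 12.75 and 12.67 in WT and 12.16, 11.88 and 11.98 in K313. The WT arrays lay within 0.10 of each other and all above K313. The change was -0.68 ± 0.15 (SE; limma adjusted p = 0.0177). This call was the least stable of the 7. It was lost without WT replicate 2 (adjusted p = 0.0536), WT replicate 3 (0.0518), K313 replicate 2 (0.0887) or K313 replicate 3 (0.0621), while the change stayed between -0.76 and -0.62 in all 6 such fits.

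The BAFF receptor proper (Tnfrsf13c), which carries the survival signal of BAFF in B cells, read 6.87, 5.98 and 6.15 in WT and 5.71, 5.57 and 5.62 in K313. The groups did not overlap, but WT replicate 1 was far above the other WT arrays, and the difference of -0.70 ± 0.22 did not pass the threshold (limma adjusted p = 0.0925). Without WT replicate 2 it did, at -0.88 (adjusted p = 0.0437), and without WT replicate 1 the difference was -0.43 (0.224). BCMA (Tnfrsf17), the plasma cell receptor of this group, lay under the low-end mark in both groups (3.70 ± 0.12 and 3.92 ± 0.12, SD, n = 3). Of the 3 receptors, 1 fell (33.3%, beside 3.97% of all probe sets) and 2 did not pass the threshold.

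Because these receptors are best known from B cells, the B cell markers are given beside them. Of 6 measured markers, 2 fell (33.3%, beside 3.97% of all probe sets). They were Cd79b, from 9.52 to 5.59, and Cd79a, from 6.30 to 4.90, both parts of the B cell receptor. The defining genes Pax5, Ms4a1, Cd22 and Blnk were under the low-end mark in both groups, with means of 2.87 to 4.12. The summed level of the list (log2 of the sum of linear values) was 9.38 to 10.06 in WT and 6.81 to 7.15 in K313. Such a sum weighs the brightest probe set most, here Cd79b, and does not measure how many cells of a type were present. The part of these markers in the receptor values was not tested.

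TRAIL binds 1 death receptor in the mouse, Tnfrsf10b, and the decoys Tnfrsf22, Tnfrsf23 and osteoprotegerin (Tnfrsf11b). Tnfrsf10b was near the bottom of the range in both groups, at 3.32 ± 0.19 in WT and 3.35 ± 0.33 in K313 (SD, n = 3). The decoy Tnfrsf22 was bright and read 11.29, 10.59 and 10.91 in WT and 10.99, 10.86 and 11.01 in K313. The WT arrays spanned the K313 arrays on both sides, and the difference was 0.02 ± 0.19 (SE; limma adjusted p = 0.973), with a 95% interval of -0.40 to 0.44. The other decoy of that locus, Tnfrsf23, read 7.42, 6.75 and 6.84 in WT and 6.95, 6.94 and 6.71 in K313, a difference of -0.14 ± 0.20 (interval -0.57 to 0.30). Osteoprotegerin was under the mark (3.96 and 3.90). Of these 4 TRAIL receptors, 0 passed limma's threshold and 0 had an unadjusted p under 0.05.

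**Figure D4:**
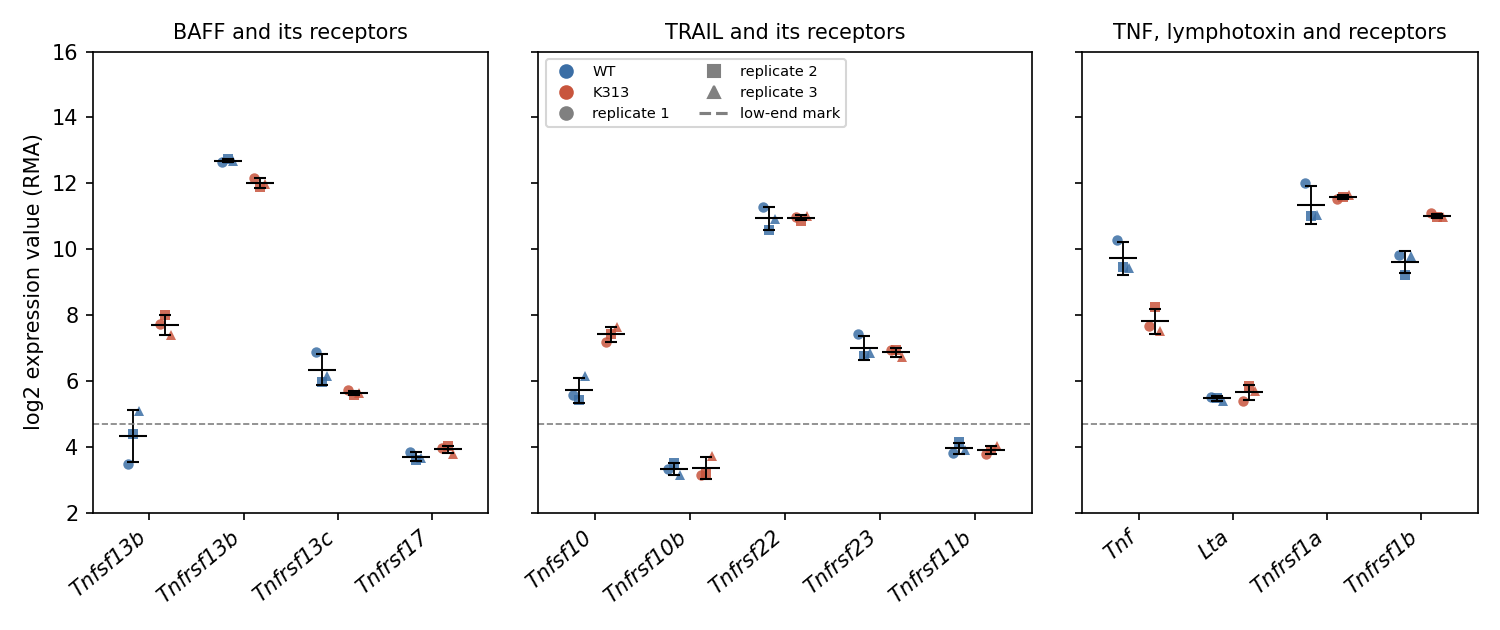
Log2 level on each array for BAFF, TRAIL and TNF with their receptors; symbols mark the replicate, bars the group mean and SD (n = 3), and the dashed line is the low-end mark of 4.70. Tnfsf13b and Tnfsf10 are higher in K313 than in WT on every array, Tnf is lower on every array, and the TRAIL receptors overlap between the groups.

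Tnfrsf26 (probe set TC0700004591.mm.2) lies beside Tnfrsf22 and Tnfrsf23 on chromosome 7. It read 12.39, 12.27 and 12.56 in WT and 11.59, 11.19 and 11.35 in K313. The groups were separated by more than the range of either. The change was -1.03 ± 0.17 (SE; limma adjusted p = 0.00238), and -0.95 ± 0.19 without WT replicate 3. Its 95% interval, -1.40 to -0.66, does not overlap that of either neighbour; the difference between the neighbours was not tested as such.

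The death domain receptors gave 1 rise among 4 (25%, beside 3.77% of all probe sets). Tnfrsf21 (probe set TC1700000829.mm.2), known as DR6, read 9.85, 9.11 and 9.62 in WT and 11.08, 10.76 and 11.06 in K313. The lowest K313 array was above the highest WT array. The mean was 9.53 ± 0.38 in WT and 10.97 ± 0.18 in K313 (SD, n = 3), a change of 1.44 ± 0.21 (SE; limma adjusted p = 0.000922), and 1.49 ± 0.24 without WT replicate 3. Tnfrsf1a, the widely expressed TNF receptor that signals both NF-kB activation and death, read 12.00, 11.00 and 11.03 in WT and 11.53, 11.59 and 11.65 in K313. WT replicate 1 stood above all K313 arrays and the other WT arrays below them, and the difference was 0.25 ± 0.25 (limma adjusted p = 0.705). Without WT replicate 1 it was 0.57 (adjusted p = 0.0817). DR3 (Tnfrsf25) was close to the mark, at 4.84 and 4.77.

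Of the 9 receptors that bind TRAF adaptors without a death domain, 1 rose, 1 fell and 7 did not pass the threshold. That is 11.1% in each direction, beside 3.77% higher and 3.97% lower over all probe sets. Tnfrsf1b (probe set TC0400003957.mm.2), the TNF receptor found mainly on blood and endothelial cells, read 9.82, 9.22 and 9.80 in WT and 11.09, 10.97 and 10.97 in K313. The K313 arrays lay within 0.12 of each other and all above WT. The mean was 9.61 ± 0.34 in WT and 11.01 ± 0.07 in K313 (SD, n = 3), a change of 1.40 ± 0.19 (SE; limma adjusted p = 0.000609), and 1.49 ± 0.21 without WT replicate 3.

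Tnfrsf18 (probe set TC0400002104.mm.2), the receptor GITR of regulatory T cells, read 6.52, 6.04 and 6.37 in WT and 5.14, 5.21 and 5.38 in K313. The groups did not overlap. The change was -1.07 ± 0.17 (SE; limma adjusted p = 0.0023), and -1.04 ± 0.20 without WT replicate 3. Its ligand Tnfsf18 was under the low-end mark, at 3.61 ± 0.39 in WT and 3.23 ± 0.10 in K313 (SD, n = 3). Of 9 measured T and NK cell markers, Cd3g fell from 4.75 to 3.26 and Klrb1c rose from 4.87 to 6.03. That is 11.1% in each direction, beside 3.97% lower and 3.77% higher over all probe sets. Under the mark in both groups were 5 of the 9. These were the other T cell receptor chains, Cd3d (4.22 and 3.94) and Cd3e (3.35 and 3.45), and Cd8a, Il2rb and Ncr1. Cd2 (5.44 and 5.69) and Cd4 (5.44 and 5.28) were above it in both. The summed level of that list was 7.60 to 7.89 in WT and 7.74 to 7.95 in K313, and its part in the Tnfrsf18 value was not tested.

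The remaining receptors of this class included HVEM (Tnfrsf14), the receptor of LIGHT, which read 9.20, 9.24 and 8.71 in WT and 9.14, 9.36 and 8.81 in K313. These groups overlapped throughout, with a difference of 0.05 ± 0.20 (95% interval -0.39 to 0.50). The costimulatory receptor OX40 (Tnfrsf4) differed by 0.31 ± 0.18 (limma adjusted p = 0.443). The 10 members not named by the rule for single genes, among them RANK (Tnfrsf11a) and the TWEAK receptor (Tnfrsf12a), had differences between -0.27 and 0.21, with limma adjusted p between 0.543 and 0.967.

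In no pair of directly neighbouring members did both pass the threshold. On chromosome 4, Tnfrsf1b rose while its neighbour Tnfrsf8 differed by -0.05 ± 0.16 from a level under the mark, and Tnfrsf18 fell while Tnfrsf4 differed by 0.31 ± 0.18. Among the 3 nearest measured genes on each side of the 7 called members and of Tnf, 44 were no members, and 4 of these (9.09%) were called, 3 higher and 1 lower. They were Dhrs3, a retinal reductase next to Tnfrsf1b (1.42 ± 0.21, limma adjusted p = 0.00107), Nceh1 (0.71 ± 0.17, 0.0250) and Fndc3b (0.97 ± 0.16, 0.00227) near Tnfsf10, and Lst1 near Tnf (-1.29 ± 0.18, 0.000731). These neighbours were chosen by position, and the share is close to the 7.75% of all probe sets.

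Without overlap between the groups were 10 of the 29 members, 5 higher and 5 lower in K313, where 21.9% of all probe sets had no overlap (11% higher and 10.9% lower). Besides the 7 called members these were Tnfsf11, Tnfsf15 and Tnfrsf13c. The spread between replicates of the members was near that of the array. Their median SD was 0.21 in WT and 0.15 in K313, beside 0.20 and 0.19 for all probe sets. The widest spread was that of Tnfsf13b in WT, 0.79.

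**Figure D5:**
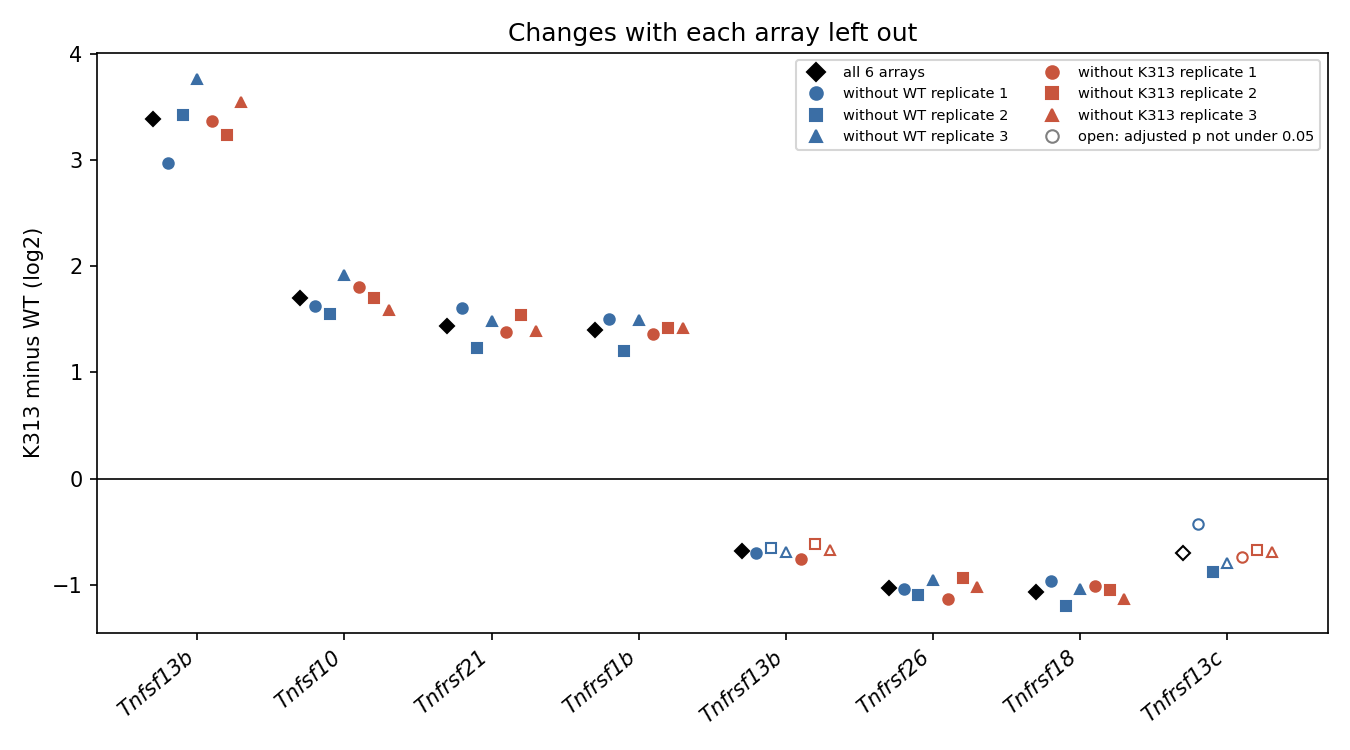
Change of the 7 called members and of Tnfrsf13c (K313 minus WT, log2) with all 6 arrays (black diamonds) and with each array left out in turn; open symbols mark fits where the limma adjusted p was not under 0.05. Tnfsf13b ranges from 2.97 to 3.76 and stays past the threshold, whereas Tnfrsf13b misses it in 4 of the 6 fits.

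TNF superfamily genes with other symbols were counted separately. Of 15 listed, 14 were measured. Of these 1 fell (7.14%), 0 rose and 13 did not pass the threshold. Over all probe sets, 7.75% were called in either direction, and 3.97% of all probe sets were called lower. At or below the low-end mark in both groups were 8 of the 14. The median change of the 14 was 0.13, beside 0.02 for all probe sets. The gene that fell was Tnf itself, the inflammatory cytokine that binds Tnfrsf1a and Tnfrsf1b. It read 10.29, 9.45 and 9.42 in WT and 7.66, 8.24 and 7.52 in K313. All K313 arrays were lower than all WT arrays. The change was -1.91 ± 0.26 (SE; limma adjusted p = 0.000682), 3.77-fold lower, and -2.06 ± 0.29 without WT replicate 3. It was lost with ordinary variance (adjusted p = 0.116). Of its neighbours on chromosome 17, lymphotoxin alpha (Lta) differed by 0.18 ± 0.17, at 5.47 and 5.65, and lymphotoxin beta (Ltb) was under the mark. The lymphotoxin receptor Ltbr differed by 0.20 ± 0.19 and the receptor Relt by -0.51 ± 0.19 (adjusted p = 0.166). Fas, the receptor of the death ligand Fasl, was under the mark in both groups (3.55 and 3.86).

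Of 36 listed genes that act directly behind these receptors, 33 were measured. Of them 2 fell (6.06%), 0 rose and 31 did not pass the threshold, with a median change of -0.13. Over all probe sets 7.75% were called in either direction, with 3.97% lower and 3.77% higher. Tnfaip3, which encodes the ubiquitin-editing enzyme A20 that ends TNF receptor signalling and is itself induced by NF-kB, read 8.98, 7.96 and 8.49 in WT and 7.05, 6.37 and 6.78 in K313. The groups did not overlap, and the change was -1.74 ± 0.26 (SE; limma adjusted p = 0.00123), lost with ordinary variance (0.133). Tab2, an adaptor of the kinase TAK1 (Map3k7), fell by 0.74 on the log2 scale (SE 0.18; adjusted p = 0.0259), a call that was lost without WT replicate 2 (0.0793), K313 replicate 1 (0.0576), K313 replicate 2 (0.0917) or K313 replicate 3 (0.0979). The necroptosis kinase Ripk3 (-0.56 ± 0.18, adjusted p = 0.102) and the caspase inhibitor Cflar (-0.40 ± 0.16, 0.212) did not pass, and the initiator Casp8 was at 16.23 and 16.19. Of 5 proteases and helpers that release ligands and receptors from the cell surface, 0 passed limma's threshold and 0 had an unadjusted p under 0.05; Adam17, which sheds TNF, differed by 0.24 ± 0.24.

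Other blood cell types are also known to make BAFF and TRAIL, so their markers are listed with their values. Of 9 measured macrophage and dendritic cell markers, 2 fell (22.2%, beside 3.97% of all probe sets) and 0 rose. Those that fell were Cx3cr1, from 6.08 to 4.04, and Adgre1, from 9.12 to 8.34. The dendritic markers Zbtb46, Xcr1 and Clec9a were under the mark in both groups, whereas Siglech, of plasmacytoid dendritic cells, read 5.85 in WT and 5.87 in K313, and Flt3, which progenitors also carry, read 5.57 and 5.27, both above it. Csf1r, the macrophage growth factor receptor, was above it too (5.73 and 5.32), and Mrc1 was under it (4.49 and 4.22). The summed level of the list, in which Adgre1 was the brightest probe set, was 9.55 to 9.85 in WT and 8.95 to 9.21 in K313. Without WT replicate 3, 1 of the 9 was called. Of 9 basophil, mast cell and eosinophil markers, 5 fell (55.6%, beside 3.97% of all probe sets) and 0 rose. The summed level of these markers was 17.87 to 18.11 in WT and 17.16 to 17.39 in K313. The brightest probe set in that sum was Cpa3 (17.24 and 16.83), which did not pass the threshold. Of the 10 granulocyte progenitor markers, 4 rose (40%, beside 3.77% of all probe sets) and 2, Csf3r and Cd34, fell (20%, beside 3.97%). The summed level of these 10 was 19.10 to 19.22 in WT and 19.40 to 19.43 in K313. Mpo was the brightest probe set in it (18.41 and 18.42). Of 7 fibroblast and endothelial markers, Pecam1, which myeloid cells also make, rose (14.3%, beside 3.77% of all probe sets) and 6 were under the mark. The part of these cell types in the members' values was not tested.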

How the data were processed

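Total RNA of 6 arrays (3 WT, 3 K313) was measured; groups and replicate numbers came from the sample titles. The authors deposited log2 expression values, made with RMA and the Transcriptome Analysis Console per the submitters' processing notes, with no version given in the sources used here. RMA equalises the distributions of the arrays, so differences in RNA content per cell are lost, and folds at low signal are compressed. Arrays have no read depth; their number, 3 per group, limits the precision (median SE of a log2 difference 0.18).

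Symbols came from the platform annotation (19572 probe sets with 1 symbol, 2634 with none). All 29 members were found in the RefSeq table of GRCm38.p6, used for gene order; the array's build is not given, so no gene coordinates are printed. Promoter sequences are RefSeq's.

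All 22206 probe sets were fitted with limma 3.58.1 (R 4.3.3; lmFit, group as the only term, eBayes, two-sided, Benjamini-Hochberg over all probe sets, threshold 0.05). The test was checked on simulated data with 50 changed probe sets of each size. It recovered 6% of changes of 0.5 log2 units, 92% of changes of 1 and 100% of changes of 2 or 3. Of its 161 calls, 12 were false. The data gave 1720 calls, so the unadjusted p that sufficed to pass was larger there than in the simulation. The simulated noise was also drawn independently from the moderated variances, so these shares may not carry over to the data. Small differences could still be missed. Members, gene lists and tests were chosen with earlier results of these data known; the low-end mark and the neighbour, promoter and motif searches were added once the members' values had been seen. The ISRE and NF-kB patterns were shortened after a first search with longer ones had been seen; the shorter ISRE pattern matches more windows. Described in full were the members past the threshold, their known partners, the 10 with the brightest probe sets and the 4 nearest the threshold; other members and genes are given by range, or as examples chosen for their role.

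Alternatives were quantile normalization, a common median, leaving out the 30% of probe sets with the lowest means, an intensity trend with robust prior, array weights, ordinary variance, the replicate number as a block, and each array left out.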

Additional observations from a re-analysis of the deposited data

How the results depend on the processing

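The 7 calls among the members were the same genes, with the same directions, under quantile normalization, a common median, leaving out the 30% of probe sets with the lowest means (24 of the 29 members passed), an intensity trend with robust prior, array weights and the replicate block. With the block, the calls numbered 7 among the members and 1546 on the array, and 1 in place of 2 among the macrophage and dendritic markers; the replicate pairing was not borne out by the data (same-numbered arrays' deviations correlated at -0.061, 0.029 and -0.062), and 0 of the 3 WT arrays correlated best with the K313 array of the same number. With ordinary variance the array count was 496. In that fit 0 members, 0 other TNF family genes, 0 signalling genes, and 0 T and NK, macrophage and dendritic, or stromal markers passed, 1 basophil, mast cell and eosinophil marker did, and 2 progenitor markers did. With an array left out, 1228 to 1465 probe sets passed, and 6 to 7 members. Tnfrsf13b was the called member lost, in 4 of these 6 fits, and Tnfrsf13c was gained without WT replicate 2. The calls numbered 1 to 2 for signalling genes, 1 to 2 for T and NK markers and 1 to 2 for macrophage and dendritic markers; the cause was not tested. The median change of the members lay between -0.05 and 0.11 and has no firm sign. No result reversed among those with a call. What limits all of this is 3 arrays per group and the low signal of 11 members.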
